A study of Mus musculus with 6 samples.

Results

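The mitochondrial genome carries 37 genes: 13 mRNAs for subunits of the respiratory chain and ATP synthase, 2 rRNAs and 22 tRNAs. They were taken as every row of the deposited table placed on chromosome MT, which gave 37 of 53715 genes, all with a symbol that starts with mt-. Their levels were followed in 6 RNA libraries of an immortalized mouse podocyte line. In 3 libraries the cells (genotype given as TFEB knockdown) had been transfected with an siRNA against Tfeb, and in 3 libraries (genotype given as WT) with a scrambled siRNA. Per the labels' protocols, both groups shared the culture: proliferation at 33 °C with 10% serum and interferon gamma, then differentiation for 10 to 14 days at 37 °C on type I collagen (12 mg/ml), in 5% serum. The labels name 1 line and do not say whether replicates were separate cultures, so p-values measure the spread between these libraries, which may be technical.

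Mitochondrial DNA is a small circle read on both strands by its own RNA polymerase, POLRMT. Each strand gives a long precursor in which tRNAs lie between the other genes and are cut out by RNase P and the nuclease ELAC2, which frees the mRNAs and rRNAs. The mRNAs encode hydrophobic subunits of complexes I, III, IV and V, and every other subunit comes from the nucleus. Podocytes, the epithelial cells that cover the glomerular capillaries, are known to be sensitive to defects of the respiratory chain. TFEB, the factor depleted here, is known as a driver of lysosomal genes and of autophagy, the process that also clears mitochondria.

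In the test without pairing, 2 genes of mitochondrial DNA passed between the groups, both tRNAs and both higher after Tfeb siRNA: mt-Tn, the asparagine tRNA, and mt-Tg, the glycine tRNA. mt-Tg rests on 22 and 4 reads and passed the filter on low values only through the Tfeb siRNA group. Whether reads at tRNA genes came from cut tRNAs or from uncut precursor was not tested. With the replicate number as a block 5 passed, mt-Rnr1, mt-Atp8 and mt-Tw in addition. The proline tRNA mt-Tp is shown with them because it held most of the tRNA reads. Their sequences are given 5′ to 3′ with the anticodon, the 3 bases that pair with the codon, in capitals; they are GENCODE release M21 transcripts of build mm10. Away from the ends of each gene its anticodon letters (GTT, TCC or TGG on the gene's own strand) followed a T at 1 place, where they sat in a 7-base loop with 5 of 5 stem pairs, G with T counted as a pair.
mt-Tn: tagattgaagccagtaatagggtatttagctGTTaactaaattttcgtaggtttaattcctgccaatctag
mt-Tg: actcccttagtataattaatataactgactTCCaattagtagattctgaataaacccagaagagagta
mt-Tp: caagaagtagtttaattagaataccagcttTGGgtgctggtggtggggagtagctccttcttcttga
mt-Tn lies on the minus strand at chrMT:5089-5159, mt-Tg on the plus strand at chrMT:9391-9458 and mt-Tp on the minus strand at chrMT:15356-15422. All are whole single-exon genes.

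The libraries held 18062898 to 20610888 reads derived from the table. Tfeb (ENSMUSG00000023990, chromosome 17, 47737030 to 47792419, plus strand) had 0.639, 0.714 and 0.822 FPKM (fragments per kilobase of gene, scaled to depth) in Tfeb siRNA replicates 1 to 3, against 1.80, 2.05 and 2.27 FPKM in scrambled siRNA replicates 1 to 3. All 3 Tfeb siRNA libraries lay below all 3 scrambled ones (log2 fold change -1.05 ± 0.13 SE, limma adjusted p = 0.00148). The mean after Tfeb siRNA, 0.725 FPKM, lay below the filter of 1 FPKM. Tfeb was thus tested only through the scrambled siRNA group, in which it was high. With no filter the limma adjusted p was 0.0074. Of 10 podocyte markers 5 passed the filter on low values, among them Synpo, Podxl, Cd2ap and Actn4. Nphs1, which encodes the slit diaphragm protein nephrin and is a defining podocyte transcript, was near 0, with 25 reads in the Tfeb siRNA group and 96 in the scrambled siRNA group. Some markers of other kidney cells were present. Of 4 proximal tubule markers 2 passed the filter. Aqp1 had 156 ± 16.8 and 146 ± 22.3 FPKM, and Lrp2 46.3 ± 3.44 and 52.5 ± 5.43 FPKM (Tfeb siRNA, then scrambled siRNA, SD, n = 3). The other 2 were near 0: Slc34a1 had 9 and 15 reads and Slc5a2 8 and 17, in the same order of groups. Of 20 markers of endothelial, mesangial, tubule and immune cells, 5 passed the filter. Of these 5, 1 was called, the macrophage receptor gene Csf1r, lower at 2.24 ± 0.133 and 4.25 ± 0.150 FPKM. Over all tested genes 33.3% were called, 16.4% lower. The part of these markers in the results was not tested.

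Genes of mitochondrial DNA gave 1.50% ± 0.0673 of all reads in Tfeb siRNA libraries and 1.41% ± 0.0394 in scrambled siRNA libraries (SD, n = 3). Within them the mRNAs took 94.4% ± 0.0618 and 94.0% ± 0.201, the rRNAs 4.89% ± 0.101 and 5.32% ± 0.194, and the tRNAs 0.695% ± 0.0594 and 0.667% ± 0.0428, in the same order of groups. Minus-strand genes, which are mt-Nd6 and 8 tRNAs, took 3.69% ± 0.104 and 3.62% ± 0.0876. Whether counting used the strand is not given in the sources used here. If it did not, reads of a minus-strand gene and of precursor from the opposite strand cannot be told apart. In bulk RNA, fewer cells of a type or fewer mitochondrial genomes cannot be told apart from less RNA per cell or genome.

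**Figure D1:**
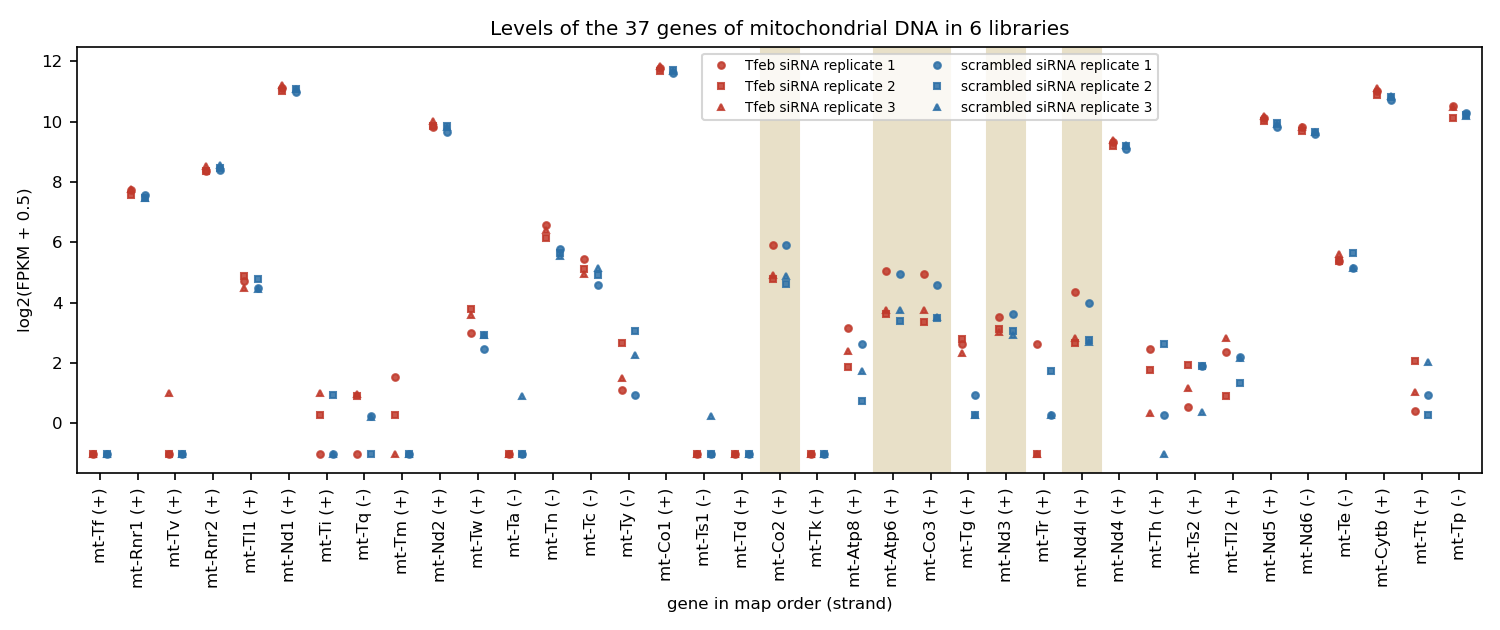
Level of each of the 37 mitochondrial DNA genes, in map order, as log2(FPKM + 0.5) in the 3 Tfeb siRNA libraries (red) and the 3 scrambled siRNA libraries (blue). Genes with over 90% of their 50-base words in another annotated gene are shaded; the 6 mRNAs from mt-Co2 to mt-Nd4l stand far below the other 7, and in all 6 the circles of replicate 1 lie above the other replicates in both groups.

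The 7 mRNAs of high level stood in 1 order in both groups. mt-Co1, the catalytic subunit of cytochrome c oxidase (complex IV), was highest on the FPKM scale, at 3535, 3307 and 3642 FPKM in Tfeb siRNA replicates 1 to 3 and 3099, 3354 and 3272 FPKM in scrambled siRNA replicates 1 to 3. mt-Nd1, a complex I subunit at the quinone site, followed at 2224 ± 151 and 2122 ± 92.0 FPKM (Tfeb siRNA, then scrambled siRNA, SD, n = 3). Next was mt-Cytb, the cytochrome b of complex III, at 2066 ± 169 and 1788 ± 89.6 FPKM in the same order of groups. The libraries of mt-Nd1 and mt-Cytb overlapped after Tfeb siRNA and not after scrambled siRNA. Then came the complex I subunits mt-Nd5 (1097 ± 61.6 and 957 ± 54.4 FPKM), mt-Nd2 (961 ± 76.9 and 872 ± 61.2 FPKM), mt-Nd6 (880 ± 47.6 and 791 ± 21.4 FPKM) and mt-Nd4 (633 ± 41.9 and 576 ± 28.8 FPKM). Levels of mt-Nd5 and mt-Nd2, and of mt-Nd2 and mt-Nd6, overlapped between libraries in both groups.

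None of the 13 mRNAs passed the test between the groups by limma after adjustment, although 2 had an unadjusted p below 0.05 (mt-Nd5 and mt-Cytb). Across all 12257 genes tested, 33.3% were called, 16.9% higher and 16.4% lower after Tfeb siRNA. Of the 37 mitochondrial DNA genes 28 passed the filter of a mean of 1 FPKM, and 2 of those 28 (7.14%) were called higher and 0 lower (limma; 6 had an unadjusted p below 0.05). With the replicate block 5 of the 28 were called higher and 0 lower, where 40.2% of all genes were called. Each of the 13 mRNAs had a positive log2 fold change, with a median of 0.13, where the median of all tested genes was 0.02. That of mt-Co2, mt-Atp6, mt-Co3, mt-Nd3 and mt-Nd4l turned negative when single libraries were left out. For mt-Nd3 it also turned with total scaling. Scaled to the mitochondrial mRNAs themselves, 8 of the 13 turned negative. That scaling centres these same mRNAs near 0 by its construction, so it is no check on their sign. Groups did not overlap for 48.7% of all tested genes, 25.3% higher and 23.5% lower after Tfeb siRNA. They did not overlap for 7 of the 28 mitochondrial genes (25.0%), all 7 higher, a share near the 25.3% of all genes.

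mt-Cytb had 2053, 1903 and 2241 FPKM in Tfeb siRNA replicates 1 to 3, against 1690, 1812 and 1864 FPKM in scrambled siRNA replicates 1 to 3. All 3 Tfeb siRNA libraries lay above all 3 scrambled ones, by little for replicate 2, and the difference missed the threshold (log2 fold change 0.21 ± 0.09 SE, limma adjusted p = 0.112). mt-Nd5 had 1104, 1032 and 1154 FPKM after Tfeb siRNA and 896, 1002 and 972 FPKM after scrambled siRNA, again without overlap (limma adjusted p = 0.0867). mt-Nd6, the one mRNA on the minus strand, had 902, 825 and 913 FPKM after Tfeb siRNA and 767, 804 and 804 FPKM after scrambled siRNA (limma adjusted p = 0.124). With limma-voom on the derived reads mt-Nd5 and mt-Cytb were called (adjusted p = 0.0259 and 0.0306; over all alternatives 0.0259 to 0.599 and 0.0306 to 0.626). The other 4 high mRNAs overlapped between the groups, and mt-Nd1 had the smallest difference of the 7 (limma log2 fold change 0.07, 95% interval -0.13 to 0.26). For the 7 high mRNAs together, the intervals of the log2 fold change reached from -0.13 to 0.41, so larger differences lie outside every one of them.

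**Figure D2:**
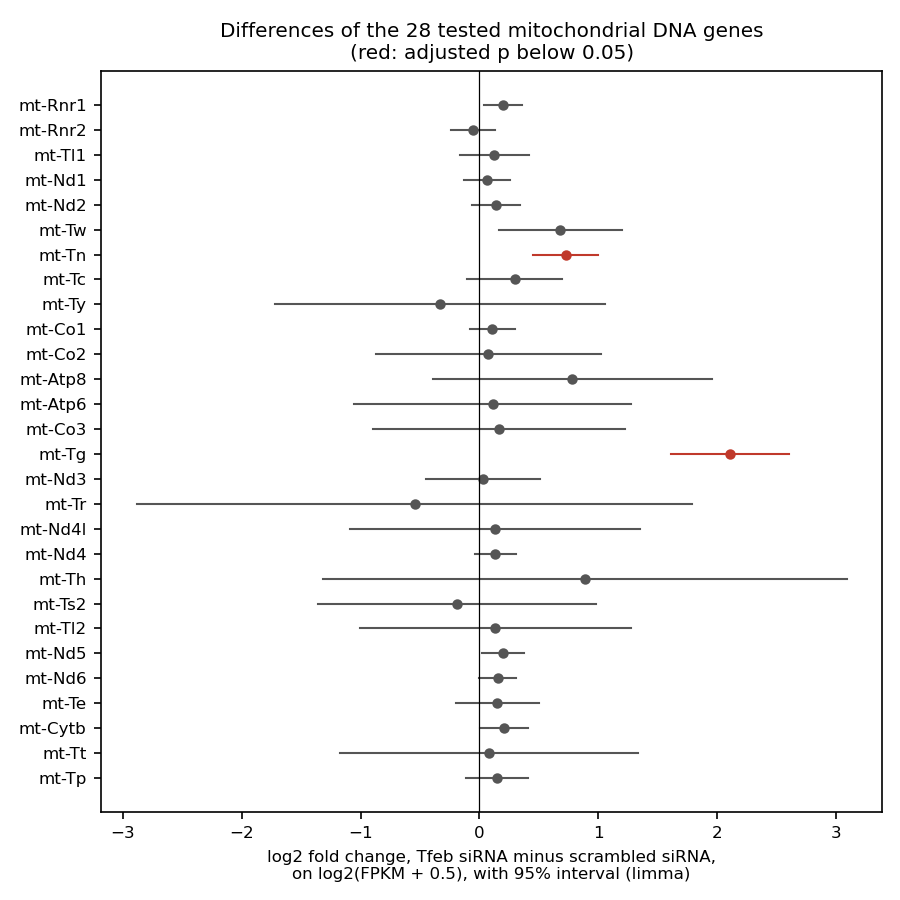
Log2 fold change (Tfeb siRNA minus scrambled siRNA, on log2(FPKM + 0.5)) of the 28 tested mitochondrial DNA genes in map order, with the 95% interval of each gene from limma, not adjusted for the number of genes. mt-Tn at 0.72 and mt-Tg at 2.11 are the genes called, in red; the 7 high mRNAs have narrow intervals and the short or weakly covered genes wide ones.

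The 6 mRNAs between mt-Co1 and mt-Nd4 on the map were measured at far lower levels: mt-Co2 and mt-Co3 (core subunits of cytochrome c oxidase), mt-Atp8 and mt-Atp6 (membrane subunits of ATP synthase), and mt-Nd3 and mt-Nd4l (small membrane subunits of complex I). Their group means ran from 5.48 to 38.9 FPKM after Tfeb siRNA and from 3.21 to 37.3 FPKM after scrambled siRNA, against 633 to 3495 and 576 to 3242 FPKM for the other 7. Together they held 3443 and 3502 reads, against 816717 and 807836 reads of the other 7. For 5 of these 6, 98.0% to 100% of the 50-base words of the gene recur in another annotated gene, nearly all of them in a copy on nuclear chromosome 1. The copies are 7 unprocessed pseudogenes within 24611535 to 24616197 (4663 bases, build mm10), in the map order of mt-Co1 to mt-Nd4. The same start of mt-Co2 and of its copy Gm28661 shows what a read from either gene would hold, with the start codon in capitals.
mt-Co2: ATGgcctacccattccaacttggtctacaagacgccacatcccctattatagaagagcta
Gm28661: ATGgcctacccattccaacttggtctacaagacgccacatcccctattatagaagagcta
These 60 bases lie at chrMT:7013-7072 (plus strand) and chr1:24615506-24615565 (minus strand), and the run of identical letters goes on over all 681 bases of Gm28661.

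Identical runs were 678 bases for mt-Atp6 and Gm10925, 783 for mt-Co3 and Gm28437, 342 for mt-Nd3 and Gm28438 and 294 for mt-Nd4l and Gm10222. mt-Atp8 has no annotated copy of its own, but an unannotated stretch of 233 bases lies between Gm10925 and Gm28661, its place in the map order, and 43 of its 204 bases overlap mt-Atp6. mt-Co1 and mt-Nd4, at the edges of the copied stretch, share 51.1% and 62.2% of their words with other genes. mt-Nd2, mt-Nd5 and mt-Rnr2 share 8.19%, 7.61% and 1.04%, and the other mitochondrial genes share none. A read that lies within an identical run has no single place, so the levels of these 5 mRNAs are uncertain. Those of mt-Co1 and mt-Nd4 are uncertain in part, with identical runs of up to 479 bases (Gm29216) and 876 bases (Gm28439). The treatment of reads with several equal places is not given in the sources used here. How far the copies set the low levels was not tested.

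Replicate 1 of both groups stood apart for these 6 genes. mt-Co2 had 735, 371 and 395 reads in Tfeb siRNA replicates 1 to 3, against 843, 339 and 413 reads in scrambled siRNA replicates 1 to 3. Its FPKM in replicate 1 was 2.11 times the mean of replicates 2 and 3 after Tfeb siRNA and 2.24 times after scrambled siRNA. mt-Atp6 had 402, 165 and 170 reads against 434, 142 and 185, mt-Co3 428, 157 and 198 against 384, 173 and 182, and mt-Nd4l 107, 35 and 38 against 96, 39 and 37. Over the 6 mRNAs this factor ran from 1.39 (mt-Nd3) to 3.23 (mt-Nd4l) after Tfeb siRNA and from 1.59 (mt-Nd3) to 2.82 (mt-Atp8) after scrambled siRNA. Over the other 7 mRNAs it ran from 0.922 to 1.04 and from 0.885 to 0.954.

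Replicate 1 of both groups also stood above the mean of the other replicates in all 7 nuclear copies. Gm28661 had 356, 178 and 236 reads in Tfeb siRNA replicates 1 to 3 and 409, 174 and 217 in scrambled siRNA replicates 1 to 3, and Gm10925 had 529, 187 and 213 against 428, 177 and 223. The factor of replicate 1 was 1.17 to 2.91 for the 7 copies after Tfeb siRNA and 1.60 to 2.51 after scrambled siRNA. None of the 7 was called between the groups (limma adjusted p from 0.555 to 0.857). What sets replicate 1 apart at these genes was not tested.

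Between the groups the 6 low mRNAs had wide intervals. mt-Atp8 had 31, 13 and 19 reads after Tfeb siRNA and 24, 5 and 12 after scrambled siRNA, or 5.48 ± 2.72 and 3.21 ± 2.26 FPKM (log2 fold change 0.78 ± 0.50 SE, limma adjusted p = 0.268). With the replicate number as a block, which compares libraries of 1 number with each other, it was called higher (adjusted p = 0.00691; over all alternatives 0.00691 to 0.623). mt-Nd3 had 9.01 ± 1.79 and 8.93 ± 2.56 FPKM and the narrowest interval of the 6 (limma log2 fold change 0.03, -0.45 to 0.51). mt-Co2 had 38.9 ± 18.3 and 37.3 ± 19.1 FPKM, mt-Atp6 19.3 ± 11.8 and 17.9 ± 11.1 FPKM, mt-Co3 17.8 ± 11.1 and 15.1 ± 7.29 FPKM, and mt-Nd4l 10.8 ± 8.02 and 9.27 ± 5.41 FPKM (Tfeb siRNA, then scrambled siRNA). The sign of the difference of mt-Co2, mt-Atp6, mt-Co3, mt-Nd3 and mt-Nd4l turned when single libraries were left out, so no direction is given for them.

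**Figure D3:**
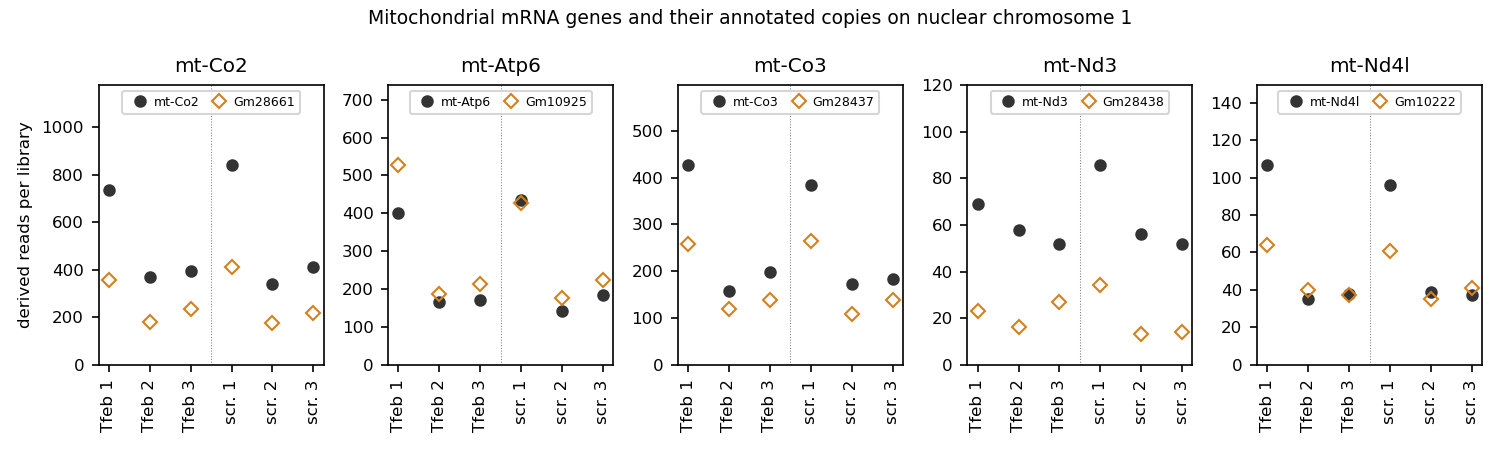
Derived reads per library (vertical axes) of 5 mitochondrial mRNA genes (filled circles) and of their annotated copies on chromosome 1 (open diamonds), for Tfeb siRNA replicates 1 to 3, left of the dotted line, and scrambled siRNA replicates 1 to 3, right of it. In mt-Co2 and Gm28661 replicate 1 holds 735 and 356 reads after Tfeb siRNA and 843 and 409 reads after scrambled siRNA, above replicates 2 and 3 of the same group.

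The difference between the groups had opposite signs for the rRNAs, and neither passed the test. mt-Rnr1, the 12S RNA of the small mitochondrial ribosomal subunit, had 215, 190 and 216 FPKM in Tfeb siRNA replicates 1 to 3, against 189, 175 and 177 FPKM in scrambled siRNA replicates 1 to 3. The groups did not overlap and the difference missed the threshold (log2 fold change 0.20 ± 0.07 SE, limma adjusted p = 0.0631). It passed with the replicate number as a block (adjusted p = 0.0289), with limma-voom (0.0302) and without Tfeb siRNA replicate 2 (0.0266), and ran up to 0.571 over the alternatives. mt-Rnr2, the 16S RNA of the large subunit, had 329, 329 and 370 FPKM after Tfeb siRNA and 334, 352 and 382 FPKM after scrambled siRNA, which overlap (log2 fold change -0.06 ± 0.08 SE, limma adjusted p = 0.622). The genes lie next to each other on the plus strand with mt-Tv, the valine tRNA, between them (2 and 0 reads).

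The ratio of mt-Rnr2 to mt-Rnr1 does not depend on scaling between libraries. It was 1.53, 1.73 and 1.71 in Tfeb siRNA replicates 1 to 3 and 1.77, 2.01 and 2.16 in scrambled siRNA replicates 1 to 3. All 3 Tfeb siRNA libraries lay below all 3 scrambled ones, with replicate 1 lowest in both groups (difference of log2 ratios -0.25; exact two-sided permutation p = 0.1, the smallest that 3 against 3 allows). The ratio of mt-Nd6 to mt-Nd5, which face each other on opposite strands and overlap by 14 bases, was 0.817, 0.800 and 0.791 after Tfeb siRNA and 0.856, 0.802 and 0.828 after scrambled siRNA. Those values overlap between the groups (exact two-sided permutation p = 0.2).

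**Figure D4:**
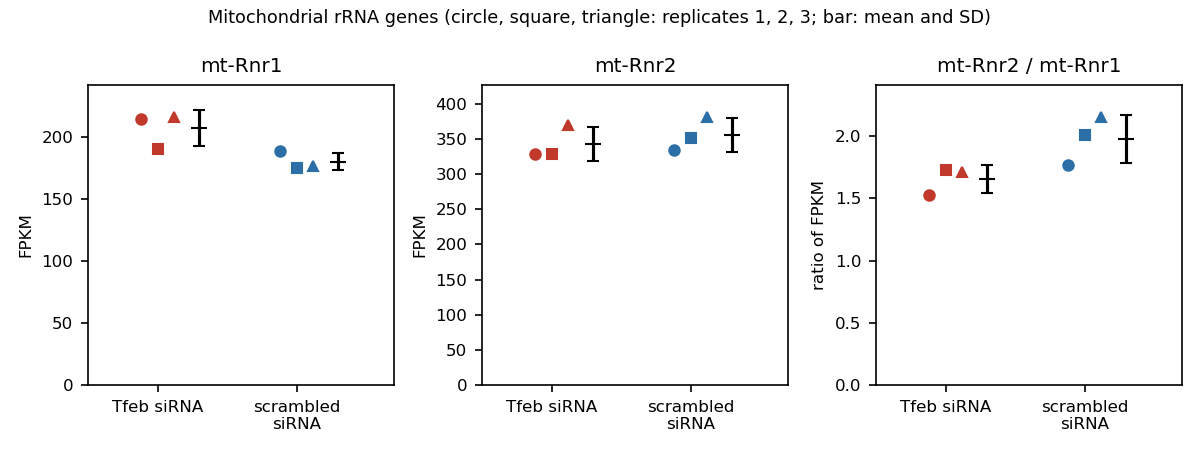
FPKM of mt-Rnr1 and mt-Rnr2 and their ratio in each library (Tfeb siRNA left in red, scrambled siRNA right in blue; symbols mark the replicate number, bars the mean and SD of 3 libraries). The ratio is 1.53 to 1.73 after Tfeb siRNA, below the 1.77 to 2.16 after scrambled siRNA.

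The 22 tRNA genes are 59 to 75 bases long, and their read numbers were small. Over the 6 libraries they held 11781 reads, of which mt-Tp held 86.2%. Of the 22 genes 3 had no read in any library (mt-Tf, mt-Td and mt-Tk, for phenylalanine, aspartate and lysine), 9 had under 20 reads in all and 10 had 20 or more. The 8 minus-strand tRNAs held 11357 reads and the 14 plus-strand tRNAs 424. A single read at a gene of 68 bases is worth 0.703 to 0.820 FPKM, more than the 0.5 FPKM added before the log. FPKM levels of such short genes cannot be set against those of mRNAs, since a fragment can be longer than the gene. Reads of cut tRNAs and of uncut precursor were not told apart, for mt-Tn and mt-Tg as for the others.

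mt-Tp is the first gene that light-strand transcription meets after its promoter in the control region. It had 1748, 1519 and 1865 reads in Tfeb siRNA replicates 1 to 3, against 1740, 1644 and 1638 reads in scrambled siRNA replicates 1 to 3. The groups overlap, and the difference in FPKM missed the threshold (log2 fold change 0.15 ± 0.11 SE, limma adjusted p = 0.351; 0.0331 without Tfeb siRNA replicate 2, and up to 0.995 over the alternatives). Its plus-strand neighbour mt-Tt, the threonine tRNA, which ends at the base before it, had 8 reads in each group.

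mt-Tn had 122, 101 and 116 reads in Tfeb siRNA replicates 1 to 3, against 80, 73 and 69 reads in scrambled siRNA replicates 1 to 3. On the FPKM scale that is 95.8, 70.2 and 84.6 against 54.1, 49.7 and 46.5, and every Tfeb siRNA library lay above every scrambled one. The mean was 1.67-fold higher (83.5 ± 12.8 against 50.1 ± 3.81 FPKM, SD, n = 3; log2 fold change 0.72 ± 0.12 SE, limma adjusted p = 0.00407). The call held under each of the 17 alternatives run, with adjusted p from 0.00259 to 0.0180. mt-Tn is 1 of a run of 4 minus-strand tRNAs, in map order mt-Ta, mt-Tn, mt-Tc and mt-Ty (alanine, asparagine, cysteine and tyrosine). The 32 bases between mt-Tn and mt-Tc hold the origin of light-strand replication.

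The other tRNAs of that run did not pass. mt-Tc had 51, 46 and 39 reads after Tfeb siRNA and 32, 41 and 48 after scrambled siRNA, with overlap (log2 fold change 0.30 ± 0.17 SE, limma adjusted p = 0.224). mt-Ty had 13 and 19 reads in the groups and mt-Ta 0 and 2. mt-Tw, the tryptophan tRNA at the plus-strand edge of the run, was singled out after its values were seen: it had 9, 18 and 15 reads after Tfeb siRNA and 7, 10 and 10 after scrambled siRNA. Its FPKM values did not overlap between the groups (7.49, 13.3 and 11.6 against 5.01, 7.21 and 7.14), and the test just missed (log2 fold change 0.68 ± 0.22 SE, limma adjusted p = 0.0514). With the replicate number as a block mt-Tw was called (adjusted p = 0.00248), as it was without Tfeb siRNA replicate 1 (0.0117), without both libraries numbered 1 (0.00640) and among genes of at least 5 FPKM (0.0394), with up to 0.207 over the alternatives.

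mt-Tg had 7, 9 and 6 reads in Tfeb siRNA replicates 1 to 3, against 2, 1 and 1 reads in scrambled siRNA replicates 1 to 3. On the FPKM scale that is 5.74, 6.54 and 4.57 against 1.41, 0.711 and 0.703. The groups do not overlap, but the comparison rests on 22 and 4 reads. Scaled to depth the reads were 5.97 times as many, with an exact 95% counting interval of 2.03 to 23.8, which covers counting error only (log2 fold change 2.11 ± 0.21 SE, limma adjusted p = 0.000793). The call held under each of the 16 alternatives that tested the gene, with adjusted p from 0.000674 to 0.0102. mt-Tg was the 1 tested gene of the 28 with a group mean below the filter (0.942 ± 0.407 FPKM after scrambled siRNA), so it was tested only through the group in which it was high. It lies between mt-Co3 and mt-Nd3, whose copies on chromosome 1 are 69 bases apart; whether those bases hold a copy of mt-Tg was not tested.

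Of the other tRNAs with most reads, mt-Te (glutamate) had 51, 57 and 65 reads after Tfeb siRNA and 50, 71 and 50 after scrambled siRNA (limma adjusted p = 0.479; 0.0484 without scrambled siRNA replicate 2, up to 0.987 over the alternatives). mt-Tl1, the leucine tRNA between mt-Rnr2 and mt-Nd1, had 35, 44 and 32 reads against 34, 42 and 34 (limma adjusted p = 0.468). Both overlap between the groups. The other 6 tested tRNAs (mt-Ty, mt-Tl2, mt-Th, mt-Ts2, mt-Tt and mt-Tr) held 7 to 17 reads after Tfeb siRNA and 6 to 19 after scrambled siRNA, and none was called. Without mt-Tp all tRNAs held 899 reads in the Tfeb siRNA group and 728 in the scrambled siRNA group. These totals include the called genes mt-Tn (339 and 222 reads) and mt-Tg (22 and 4 reads).

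**Figure D5:**
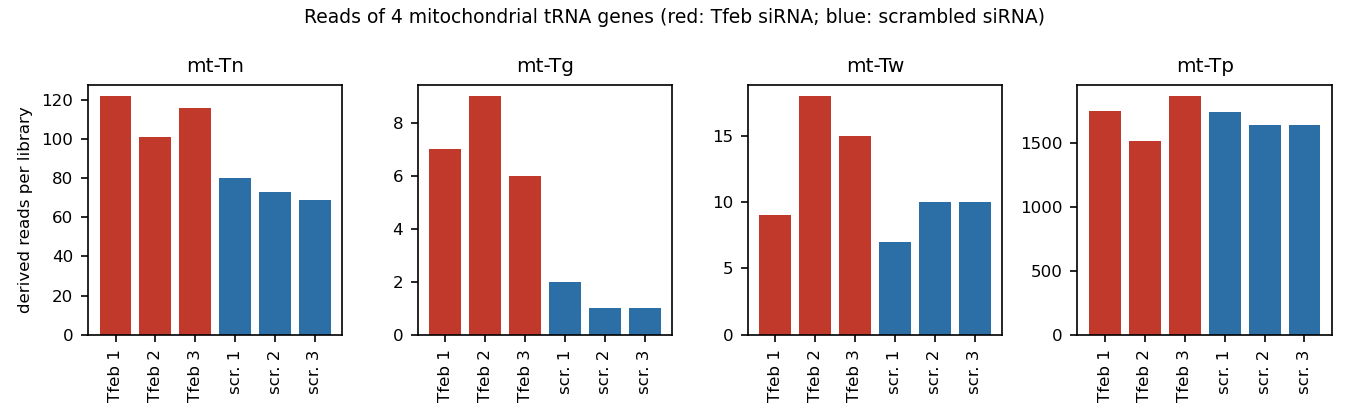
Derived reads of 4 tRNA genes in each library (Tfeb siRNA replicates 1 to 3 in red at left, scrambled siRNA replicates 1 to 3 in blue at right; separate vertical axes from 0). mt-Tn holds 101 to 122 reads in the Tfeb siRNA libraries and 69 to 80 in the scrambled ones, mt-Tg 6 to 9 and 1 to 2, mt-Tw overlaps in reads, and mt-Tp 1519 to 1865 and 1638 to 1740, with overlap.

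Of 54 nuclear genes that copy, transcribe and process mitochondrial DNA and its RNA 50 were tested, of which 6 were higher, 3 lower and 41 not called (9 of 50, 18%, where 33.3% of all tested genes were called; median log2 fold change 0.02). None of the 7 tested transcription factors of mitochondrial DNA was called (lowest limma adjusted p = 0.0613; 1 had an unadjusted p below 0.05). Polrmt had 6.66 ± 0.333 and 6.39 ± 0.439 FPKM, Tfam, which packs and activates mitochondrial DNA, 7.21 ± 0.169 and 7.50 ± 0.439 FPKM, and Tfb2m, which opens the promoter, 9.13 ± 0.665 and 8.45 ± 0.728 FPKM (Tfeb siRNA, then scrambled siRNA; SD, n = 3; these 3 were chosen for their role). Top1mt, the mitochondrial topoisomerase, rose (9.51 ± 0.272 against 5.69 ± 0.173 FPKM; log2 fold change 0.69 ± 0.05 SE, limma adjusted p = 0.000371), as did Angel2, a relative of deadenylases (7.54 ± 0.0271 against 5.86 ± 0.0816 FPKM). Grsf1, an RNA-binding protein of mitochondrial RNA granules, fell (23.6 ± 0.549 against 29.1 ± 0.671 FPKM; log2 fold change -0.30 ± 0.05 SE, limma adjusted p = 0.00381).

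Other members past the threshold were less firm. Mettl17, a factor of the small mitochondrial ribosomal subunit, had 2.93 ± 0.232 and 2.09 ± 0.335 FPKM (limma adjusted p = 0.0324) and lost its call without each library but scrambled siRNA replicate 1 (0.0557 to 0.0984 without one of the other 5). Mrm1, which methylates 16S rRNA, had 2.13 ± 0.404 and 3.57 ± 0.782 FPKM (limma adjusted p = 0.0271; 0.0574, 0.0748 and 0.0659 without Tfeb siRNA replicate 1 or 3 or scrambled siRNA replicate 2). Trnt1, which adds the CCA end to tRNAs, had 9.88 ± 1.17 and 12.5 ± 1.26 FPKM (limma adjusted p = 0.0439) and missed the threshold when Tfeb siRNA replicate 1 or 3 or scrambled siRNA replicate 1 or 2 was left out (0.0924 to 0.124); 15.6% of its words recur in other genes. Tfb1m, which methylates 12S rRNA (6.41 ± 0.316 and 5.33 ± 0.363 FPKM), Lrpprc, which stabilizes mitochondrial mRNAs (12.97 ± 0.450 and 11.36 ± 0.298 FPKM), and Ptcd3, a protein of the small mitochondrial ribosomal subunit (11.2 ± 0.323 and 9.86 ± 0.341 FPKM), were the other 3 called higher; they fall outside the rule for named genes and were chosen after their values were seen. For the whole list the numbers were 6 higher and 3 lower without scrambled siRNA replicate 1, but 2 or 3 higher and 1 to 3 lower without any 1 of the other 5 libraries. With other scalings they were 2 and 2 (TPM), 3 and 4 (total reads) and 1 and 8 (scaled to the mitochondrial mRNAs), and with the replicate block 10 and 4. The share of all genes called was 22.6% to 27.8% with single libraries left out, 25.7%, 33.2% and 30.4% with these scalings, and 40.2% with the block.

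Of 72 nuclear subunits of complexes I, III, IV and V, 2 were higher and 13 lower (2.78% and 18.1%, where 16.9% and 16.4% of all tested genes were called; median log2 fold change -0.11). By complex, the numbers lower were 9 of 36 in complex I, 1 of 9 in III, 2 of 11 in IV and 1 of 16 in V, and the numbers higher 1, 0, 0 and 1. Ndufb3, an accessory subunit of complex I, fell (52.9 ± 1.86 against 70.7 ± 4.44 FPKM; log2 fold change -0.42 ± 0.06 SE, limma adjusted p = 0.00293). Ndufb6, another accessory subunit of complex I, fell too (71.0 ± 8.61 against 99.9 ± 8.23 FPKM; 34.1% of its words recur in Smim27), as did Cox6c of complex IV (26.2 ± 1.91 against 35.3 ± 3.90 FPKM). Atp5l, a membrane subunit of ATP synthase, rose (8.78 ± 0.252 against 7.27 ± 0.232 FPKM; log2 fold change 0.25 ± 0.05 SE, limma adjusted p = 0.0118). Atp5l missed the threshold without both libraries numbered 1 (adjusted p = 0.0664) and when scaled to the mitochondrial mRNAs (log2 fold change 0.12, adjusted p = 0.266). Without Tfeb siRNA replicate 1 or scrambled siRNA replicate 3 the number lower was 7, where 26.4% and 22.6% of all genes were called in either direction. With the replicate block it was 22, where 40.2% of all genes were called. Whether the mitochondrial and the nuclear subunits differ in their response was not tested.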

How the data were processed

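RNA-seq values of 6 libraries (3 Tfeb siRNA, 3 scrambled siRNA, grouped by sample titles) were used. The deposited values are FPKM, per the file headers, which adjust read numbers for gene length and depth. The submitters' processing notes name build mm10. The sources used here do not name the aligner, counter, annotation release or use of strand. FPKM times length was a whole multiple of 1 step per library for 100% of values above 0 (tolerance 1e-06), so reads were derived; the depth the authors divided by equalled a median-of-ratios size factor scaled by the geometric mean of total reads. No other sample's column was present (0 unused).

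Groups were compared with limma 3.58.1 (R 4.3.3) on log2(FPKM + 0.5), with a mean-variance trend, over the 12257 genes averaging at least 1 FPKM, with Benjamini-Hochberg adjustment over all of them and calls at an adjusted p below 0.05. The fold change is on the log2(FPKM + 0.5) scale, which understates low genes. The procedure was tested on simulated data. The rule for named genes was every mRNA and rRNA, called tRNAs and the 5 tRNAs with most reads, and in each nuclear list up to 3 called genes with the largest change each way; genes outside it are marked or belong to a list described. Some list members are counted but not reported here by name. Members and lists were chosen with earlier results of these data known.

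Residuals of same-numbered libraries correlated at 0.382, 0.129 and 0.166 (numbers 1, 2 and 3), each above the 0.1 set for pairing. Unlike numbers reached 0.106 (Tfeb siRNA 2 with scrambled siRNA 3) and 0.0996 (3 with 2), so mainly number 1 stood apart, and titles only number the libraries. The comparison was made without the number, and the replicate block was an alternative, given beside results whose call it changes. Other alternatives were other pseudocounts, filters, scalings, limma-voom, no trend, and each library left out. Words of 50 bases were compared with GENCODE release M21 transcripts on both strands; unannotated nuclear sequence was not searched. Python 3.11.15, pandas 2.3.3, scipy 1.17.1 and matplotlib 3.10.9 were used. Counting intervals cover counting error only, since the labels name no molecular identifiers.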

Additional observations from a re-analysis of the deposited data

How the results depend on the processing

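mt-Tn was called higher under every alternative, and mt-Tg under each that tested it, although it entered the test only through the group in which it was high; no mitochondrial gene was called lower under any. The number called higher, 2, became 5 with limma-voom and 5 with the replicate block, and ran from 2 to 4 when single libraries were left out (4 without Tfeb siRNA replicate 2). It was 2 without the 5 genes with a copy, an alternative chosen after seeing the data. None of those 5 was called in the main test, so leaving them out could not lower the number. For the nuclear genes of mitochondrial DNA expression (6 higher, 3 lower) the number higher was 3 with no filter, 2 with TPM, 3 with total scaling, 1 scaled to the mitochondrial mRNAs, 10 with the replicate block and 2 to 6 with single libraries left out. The number lower was 1 with no filter, 8 scaled to the mitochondrial mRNAs, 6 with limma-voom and 1 to 3 with single libraries left out. For the nuclear subunits (2 higher, 13 lower) it was 1 higher and 26 lower scaled to the mitochondrial mRNAs, 22 lower with the replicate block, 1 higher without both libraries numbered 1, and 2 to 3 higher and 7 to 12 lower with single libraries left out. The share of all genes called was 33.3% in the main test, 11.8% with no filter, 36.8% with limma-voom and 40.2% with the replicate block. With TPM, total scaling and scaling to the mitochondrial mRNAs it was 25.7%, 33.2% and 30.4%. It was 24.7% without both libraries numbered 1 and 22.6% to 27.8% with single libraries left out. Scaling to the mitochondrial mRNAs centres the 13 mRNAs near 0 by its construction and moved the median log2 fold change of all genes to -0.12. It also turned mt-Nd1 (-0.0800), mt-Nd2 (-0.0068), mt-Co1 (-0.0382), mt-Co2 (-0.0694), mt-Atp6 (-0.0312), mt-Nd3 (-0.11), mt-Nd4l (-0.0097), mt-Nd4 (-0.0123) and mt-Tl1 (-0.0182); total scaling turned mt-Nd3 (-0.0018). With single libraries left out the log2 fold change ran from -0.28 to 0.46 for mt-Co2, -0.35 to 0.57 for mt-Atp6, -0.30 to 0.52 for mt-Co3, -0.12 to 0.24 for mt-Nd3 and -0.41 to 0.55 for mt-Nd4l. Leaving out 1 library gives replicate 1, high for these genes in both groups, unequal weight in the groups. Apart from that and from what the scaling to the mitochondrial mRNAs fixes, the cause of these changes was not tested. The difference of log2 ratios of mt-Rnr2 to mt-Rnr1 stayed negative (-0.33 to -0.19 with single libraries left out; -0.25 with the replicate block, exact sign-flip p = 0.25, the smallest possible). Beyond the values given, the replicate block changed no call of a named mitochondrial gene. With 3 libraries a group, depth limits the tRNAs, of which 12 of 22 had under 20 reads in all.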
